A study of Mus musculus with 24 samples.

Results

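Ephrins, Eph receptors, semaphorins, plexins, neuropilins, Slits and Robos are the large families of axon guidance ligands and receptors. They were taken from the arrays by gene symbol, as every row with a single platform gene symbol that names a numbered EphA, EphB, ephrin-A, ephrin-B, semaphorin or Robo gene, a plexin of class A to D, a neuropilin or a Slit. This gave 57 genes of the 19572 rows tested, each with 1 row: 13 Eph receptors, 8 ephrins, 19 semaphorins, 9 plexins, the neuropilin Nrp2, 3 Slits and 4 Robos. By role, 30 encode ligands and 27 encode receptors. The rule uses symbols alone, and it was set with earlier results of these data known.

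Transcripts were measured on 24 arrays of RNA from mouse cerebellum, hippocampus and cerebral cortex. The tissue came from 4 mice with a knockout of glutamine synthetase that is specific to the liver (KO) and from 4 wild-type mice (WT), 1 array per region and animal, so that each of the 6 groups held 4 arrays. Liver glutamine synthetase binds ammonia to glutamate, and the series asks how raised ammonia alters the brain. The labels name no strain, sex or age, no promoter that drives the deletion, and no treatment for either genotype. Levels are the deposited log2 values, and a difference is the difference of 2 mean log2 levels, so that 1 equals a 2-fold change. Because each gene has its own probes, the results compared levels between arrays and not between genes. The choice of the gene of highest mean in each family for naming did set genes against each other.

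Ephrins are ligands held on the cell surface, ephrin-A by a lipid anchor and ephrin-B by a membrane-spanning segment, and they act on Eph receptor tyrosine kinases of touching cells, mostly as repellents. Semaphorins signal through plexins, and the secreted class 3 semaphorins mostly need a neuropilin as co-receptor, while Slits are secreted proteins that repel axons through Robo receptors. In the adult brain many of these genes stay active at synapses and on dendritic spines, and Epha4 on the spines of hippocampal pyramidal neurons is known to bind an ephrin-A on the astrocyte processes around them.

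Promoters of 50 of the 57 genes were held in the RefSeq table (build GRCm38.p6), each as 300 bases around the annotated start. The promoters of 3 genes are shown because their levels followed 3 different regional patterns, described below: Epha6 was low in the cerebellum and high in the hippocampus, Efna5 was high in the cortex and Sema4g was high in the cerebellum. They were picked after the values were seen. Capitals mark E-boxes (CANNTG) and GC boxes (GGGCGG) found on either strand, which shared no base in these windows, and each sequence runs 5′ to 3′ on the strand of its gene.
Epha6, chr16:60605482-60605781, minus strand: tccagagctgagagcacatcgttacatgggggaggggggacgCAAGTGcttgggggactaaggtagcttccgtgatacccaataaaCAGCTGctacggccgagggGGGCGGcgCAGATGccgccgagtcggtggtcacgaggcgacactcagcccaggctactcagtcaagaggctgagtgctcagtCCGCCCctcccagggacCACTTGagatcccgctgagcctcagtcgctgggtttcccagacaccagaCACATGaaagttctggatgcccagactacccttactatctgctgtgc
Efna5, chr17:62881268-62881567, minus strand: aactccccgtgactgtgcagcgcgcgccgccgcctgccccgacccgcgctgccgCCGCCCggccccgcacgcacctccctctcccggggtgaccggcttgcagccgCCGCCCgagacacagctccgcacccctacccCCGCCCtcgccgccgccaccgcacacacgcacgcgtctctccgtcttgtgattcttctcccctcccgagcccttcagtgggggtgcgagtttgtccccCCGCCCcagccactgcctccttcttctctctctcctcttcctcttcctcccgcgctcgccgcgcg
Sema4g, chr19:44989094-44989393, plus strand: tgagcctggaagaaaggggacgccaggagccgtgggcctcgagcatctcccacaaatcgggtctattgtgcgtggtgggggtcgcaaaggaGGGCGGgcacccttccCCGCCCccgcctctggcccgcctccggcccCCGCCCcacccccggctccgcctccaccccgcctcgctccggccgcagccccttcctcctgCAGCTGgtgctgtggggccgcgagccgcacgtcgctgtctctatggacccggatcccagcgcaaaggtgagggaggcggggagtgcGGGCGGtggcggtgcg
The Epha6 window held 5 E-boxes and 2 GC boxes, that of Efna5 held 0 and 4, and that of Sema4g held 1 and 4. Over the guidance genes a GC box was present in 37 of 50 promoters (74.0%), against 48.2% of the 15691 promoters of genes on the array and 35.7% of all 32851 annotated starts. An E-box was present in 27 of 50 (54.0%), against 68.6% and 72.3%. The letters TATAAA were found in 2 of 50 (4.0%), against 13.1% and 13.6%, and the letters TGACG in 9 of 50 (18%), against 24.7% and 20.8%. The median GC content of these windows was 64.5% for the guidance genes and 57% for the genes on the array. These are matches of letters only, and none was tied to a level.

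The marker genes of the regions followed the labels. Mean log2 levels of 10 measured markers of cerebellar granule and Purkinje cells lay between 14.44 and 15.99 in cerebellum KO arrays and between 15.45 and 16.10 in cerebellum WT arrays, against 9.42 to 9.87 over all hippocampus and cortex arrays. Markers of neighbouring tissue set several arrays apart. The mean log2 level of 13 measured olfactory bulb markers was 11.365 in cortex KO 1 and 10.945 in cortex KO 4, against 8.471 to 8.630 in the other 6 cortex arrays, and 12 of the 13 were highest in cortex KO 1. Cerebellum KO 3 had a mean log2 level of 8.906 for 15 measured brainstem and spinal cord markers, against 7.237 to 7.637 in the other 7 cerebellum arrays, 14.242 for oligodendrocyte markers against 12.073 to 12.663, and the lowest granule and Purkinje cell level, 14.444. Of the 15 brainstem and spinal cord markers, 10 were highest in it. Its mean was also the highest for microglia (9.600, next 8.875), neocortex (9.990, next 9.384) and meninges (10.873, next 10.439). Of single markers, 6 of 7 for microglia, 2 of 8 for neocortex and 5 of 7 for meninges were highest in it. The means of endothelial, astrocyte and striatum markers were also highest in cerebellum KO 3, with 4 of 9, 4 of 7 and 3 of 7 single markers highest there. The mean log2 level of 9 choroid plexus markers ran from 8.606 to 12.199 in the hippocampus, highest in KO 1, and from 8.491 to 11.631 in the cerebellum, highest in WT 2. That of 7 striatum markers ran from 9.415 to 11.311 in the hippocampus and was 9.726 in cortex KO 1 and 9.847 in cortex WT 1, against 10.694 to 11.508 in the other cortex arrays. The part of choroid plexus and striatum tissue in the results was not tested. In whole tissue, fewer cells of a type and less RNA per cell cannot be told apart. The number of arrays, 4 in each group, limits the precision of every difference. Counts of called genes and selected values are also given without cortex KO 1 and KO 4 or without cerebellum KO 3.

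The first question was how guidance genes differed between the regions. The cerebellum stood apart from both forebrain regions: most guidance genes that passed the test were lower there, with Slit1, Epha4, Epha5, Epha6, Efna3 and Robo2 among the lower genes and Sema4g and Sema6d higher. Hippocampus and cortex differed in fewer genes, among them Slit1, Epha6, Epha7, Nrp2 and Sema5a, higher in the hippocampus, and Efna5, Sema3a and Plxnd1, lower in the hippocampus. The test was limma's moderated statistic, adjusted over all rows, and a call needed an adjusted p under 0.05 and a 2-fold difference.

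**Figure D1:**
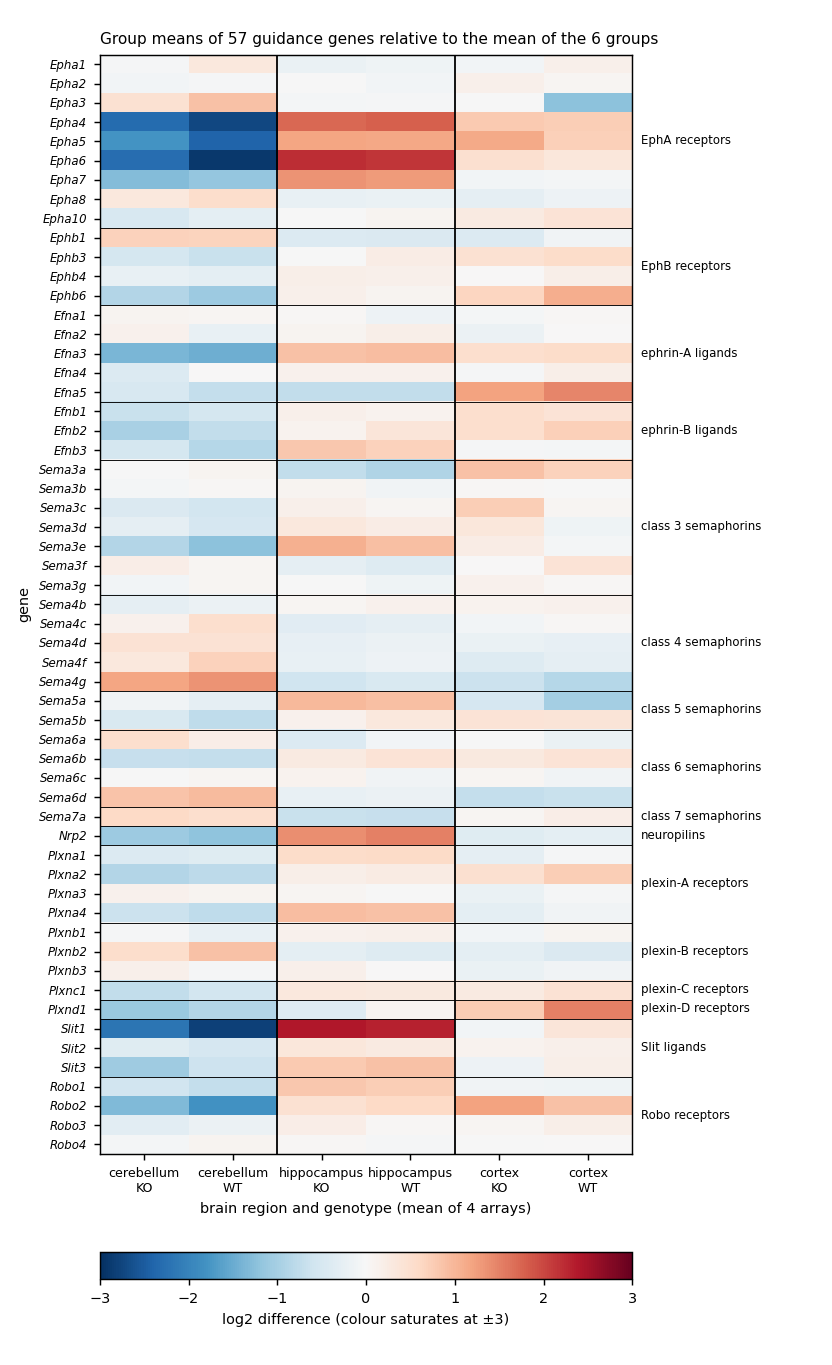
Mean log2 level of each of the 57 genes in the 6 groups (4 arrays each), shown as the difference from the mean of the 6 groups, with genes ordered by family down the page and regions across it. Blue fields of Epha4, Epha5, Epha6, Slit1 and Robo2 mark the cerebellum columns, and red fields of Slit1, Epha6, Epha4 and Nrp2 mark the hippocampus columns in both genotypes.

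Between cerebellum and cortex, 19 of 57 genes were called in KO animals, where 8.21% of all rows were called: 3 were higher in the cerebellum (3.63% of all rows) and 16 lower (4.58%). In WT animals 20 were called, against 9.98% of all rows, with 4 higher (4.51%) and 16 lower (5.47%). Between cerebellum and hippocampus, 22 were called in KO animals (8.12% of all rows), 4 higher (3.49%) and 18 lower (4.63%). In WT animals 24 were called (9.83% of all rows), 5 higher (3.98%) and 19 lower (5.85%). Between hippocampus and cortex, 9 were called in KO animals (1.84% of all rows), 6 higher in the hippocampus (0.945%) and 3 lower (0.899%). In WT animals 9 were called as well (1.36% of all rows), 6 higher (0.746%) and 3 lower (0.618%).

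By the adjusted p alone, with no minimum fold, more genes passed: 35 in KO animals (32% of all rows) and 39 in WT animals (35.7%) for cerebellum against cortex, 43 in KO animals (31.2%) and 38 in WT animals (34.8%) for cerebellum against hippocampus, and 16 in KO animals (6.77%) and 20 in WT animals (7%) for hippocampus against cortex. The median log2 difference of cerebellum from hippocampus over the 57 genes was -0.509 in KO and -0.414 in WT animals, and the median over all rows was 0.00150 in KO and 0.0330 in WT animals. Both comparisons of the cerebellum use the same cerebellum arrays, so they are not independent.

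KO and WT animals share no array, so each genotype gives its own estimate of the regional differences. The calls are not independent, because the fit takes the residual spread of a row from all 24 arrays. Called in both genotypes and in the same direction were 15 of 57 genes (26.3%) for cerebellum against cortex, where 7.24% of all rows were, 21 (36.8%) for cerebellum against hippocampus, where 7.37% of all rows were, and 8 (14%) for hippocampus against cortex, where 1.1% of all rows were. No guidance gene was called in opposite directions. Across the 57 genes the log2 differences of the genotypes had a Pearson r of 0.96, 0.985 and 0.93 for these 3 pairs. Without cortex KO 1 and KO 4, 21 genes were called between cerebellum and cortex of KO animals, where 9.02% of all rows were, and 16 of them were shared with the full set. Ephb1 (log2 difference 0.90), Sema3c (-0.62) and Sema3e (-0.81) were then no longer called, and Epha3 (1.62), Ephb3 (-1.13), Plxnb2 (1.05), Sema6a (1.13) and Slit3 (-1.17) were. Between hippocampus and cortex 13 were called without them, where 1.85% of all rows were: all 9 of the full set and Epha3, Robo1, Sema3e and Sema7a. Without hippocampus KO 1, the array of highest choroid plexus markers, 24 were called between cerebellum and hippocampus of KO animals (8.25% of all rows), among them all 22 of the full set. Genes are not independent replicates, and r describes only how closely the 2 sets of values lie together.

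**Figure D2:**
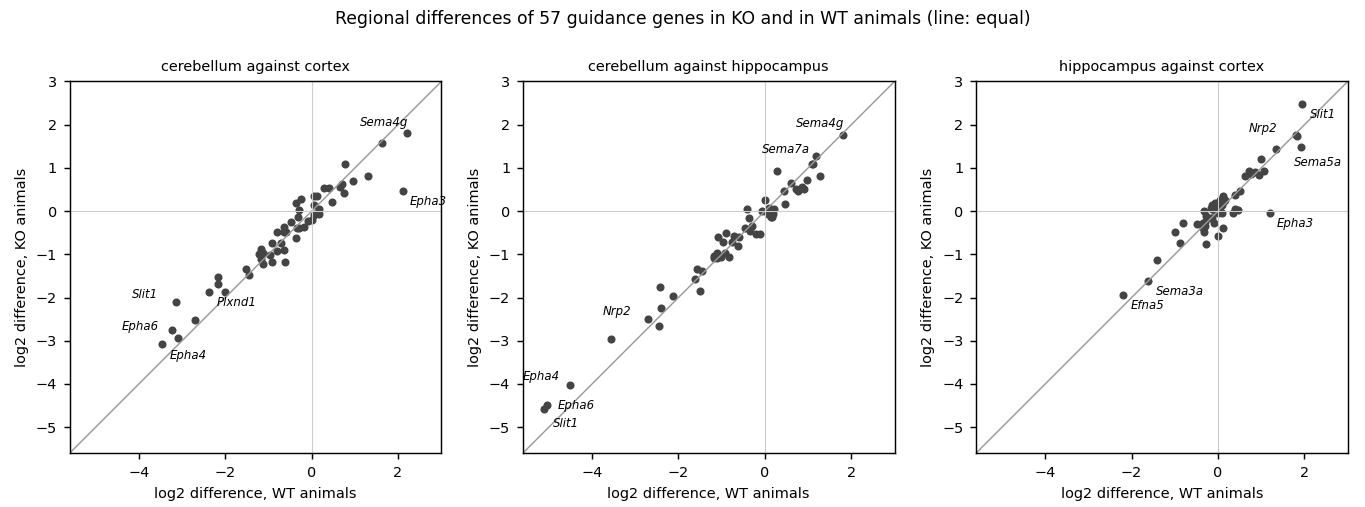
Log2 difference between 2 regions in KO animals (vertical) against the same difference in WT animals (horizontal) for 57 genes, 1 panel per pair of regions, with the line of equal values. The points lie near the line, and Epha3 lies farthest below it in the panels that involve the cortex, at 0.47 in KO and 2.10 in WT animals for cerebellum against cortex.

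Of the 5 ephrin-A genes, the cerebellum was called lower than the cortex for Efna3 and Efna5 in both genotypes. Efna3, a lipid-anchored ligand of EphA receptors, had log2 levels in the cerebellum of 10.92, 11.01, 11.49 and 10.82 in the KO animals and 10.87, 11.12, 11.01 and 10.86 in the WT animals. In the hippocampus its log2 levels were 13.38, 12.996, 13.32 and 13.52 in the KO animals and 13.59, 13.33, 13.34 and 13.23 in the WT animals, and in the cortex 12.65, 13.13, 13.06 and 12.88 in the KO animals and 12.99, 13.03, 13.03 and 12.84 in the WT animals. Every cerebellum array was below every forebrain array. The log2 difference of cerebellum from hippocampus was -2.25 in KO animals (SE 0.14, adjusted p = 1.68e-12) and -2.41 in WT animals (SE 0.14, adjusted p = 3.31e-13).

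Efna5, which directs retinal and thalamic axons during development, was instead higher in the cortex than in both other regions. Its log2 levels were 9.68, 9.64, 9.89 and 9.35 in the KO animals and 9.37, 9.12, 9.60 and 9.52 in the WT animals in the cerebellum, and 9.60, 10.17, 9.15 and 8.65 in the KO animals and 9.42, 9.31, 9.26 and 9.57 in the WT animals in the hippocampus. In the cortex they were 10.90, 11.54, 11.48 and 11.37 in the KO animals and 11.88, 11.72, 11.30 and 11.43 in the WT animals. All 8 cortex arrays lay above all other arrays, while cerebellum and hippocampus overlapped. For cerebellum against cortex the log2 difference was -1.68 in KO animals (SE 0.22, adjusted p = 7.74e-07) and -2.18 in WT animals (SE 0.22, adjusted p = 7.6e-09), and for hippocampus against cortex it was -1.93 in KO animals (SE 0.22, adjusted p = 1.26e-06) and -2.19 in WT animals (SE 0.22, adjusted p = 3.27e-07). The other ephrin-A genes, Efna1, Efna2 and Efna4, had no call in any pair of regions.

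Each of the 3 ephrin-B genes, transmembrane ligands that also signal back into the cell that carries them, was called lower in the cerebellum in at least 1 comparison. Efnb2 was called lower than cortex, with log2 differences of -1.48 in KO animals and -1.45 in WT animals, and lower than hippocampus, with -1.09 in KO animals and -1.10 in WT animals. Without cerebellum WT 2 its WT call against hippocampus was lost. Efnb3 was called lower than hippocampus, with log2 differences of -1.34 in KO animals and -1.56 in WT animals, and Efnb1 was called lower than cortex only in KO animals, -1.17 against -0.92 in WT animals, a difference between genotypes that did not pass its own test. Between hippocampus and cortex no ephrin-B gene was called.

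Of the 9 EphA receptors, 4 were called lower in the cerebellum than in both forebrain regions in each genotype: Epha4, Epha5, Epha6 and Epha7. Epha4, which binds ephrins of both classes and is known from hippocampal dendritic spines, had log2 levels in the cerebellum of 10.46, 9.80, 10.70 and 10.21 in the KO animals and 9.70, 9.71, 10.17 and 9.91 in the WT animals. The hippocampus had log2 levels of 14.33, 14.003, 14.38 and 14.55 in the KO animals and 14.30, 14.30, 14.81 and 14.14 in the WT animals, and the cortex had 12.90, 13.80, 13.55 and 13.27 in the KO animals and 13.55, 13.45, 13.001 and 13.34 in the WT animals. The 3 regions did not overlap. On the log2 scale, cerebellum minus hippocampus was -4.02 in KO animals (SE 0.19, adjusted p = 1.97e-14) and -4.52 in WT animals (SE 0.19, adjusted p = 1.52e-15), and for cerebellum against cortex it was -3.09 in KO animals (SE 0.19, adjusted p = 3.13e-12) and -3.46 in WT animals (SE 0.19, adjusted p = 2.44e-13). Between hippocampus and cortex it was called in WT animals only, with log2 differences of 0.94 in KO animals and 1.05 in WT animals.

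Epha6, another receptor of ephrin-A ligands, showed the same order. Its log2 levels were 9.44, 8.91, 10.02 and 8.18 in the KO animals and 8.24, 8.11, 9.06 and 8.67 in the WT animals in the cerebellum. In the hippocampus they were 13.58, 13.40, 13.71 and 13.82 in the KO animals and 13.54, 13.65, 13.69 and 13.40 in the WT animals, and in the cortex 12.97, 10.99, 11.62 and 12.02 in the KO animals and 11.41, 11.28, 12.36 and 11.94 in the WT animals. Regions again did not overlap, and the spread was wider in cerebellum and cortex of KO animals, where cerebellum KO 3 and cortex KO 1 were the highest arrays of their region. Log2 differences were -4.49 in KO animals (SE 0.34, adjusted p = 7.05e-11) and -5.05 in WT animals (SE 0.34, adjusted p = 5.75e-12) for cerebellum against hippocampus, and 1.73 in KO animals (SE 0.34, adjusted p = 0.00124) and 1.82 in WT animals (SE 0.34, adjusted p = 0.000872) for hippocampus against cortex. Without cortex KO 1 and KO 4 the KO difference of hippocampus from cortex was 2.322 (adjusted p = 0.000129).

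Epha5 was also lower in the cerebellum but was not called between the forebrain regions. Its log2 levels were 9.38, 9.74, 10.81 and 9.41 in the KO animals and 9.29, 9.10, 9.37 and 9.13 in the WT animals in the cerebellum, and no hippocampus or cortex array was below 11.86. Cerebellum differed from cortex by a log2 difference of -2.93 in KO animals (SE 0.29, adjusted p = 1.45e-08) and -3.10 in WT animals (SE 0.29, adjusted p = 3.8e-09). The KO value was -2.276 (adjusted p = 8.98e-07) without cortex KO 1 and KO 4. Epha7, a receptor known from the mapping of cortical and retinal axons, separated all 3 regions, with log2 levels from 12.62 to 13.37 in the cerebellum, 15.34 to 15.72 in the hippocampus and 13.50 to 14.47 in the cortex. Its log2 difference of hippocampus from cortex was 1.43 in KO animals (SE 0.19, adjusted p = 1.29e-05) and 1.34 in WT animals (SE 0.19, adjusted p = 4.9e-05). Cerebellum and cortex lay closer together, with mean log2 levels of 12.898 and 14.114 in KO animals and 13.037 and 14.156 in WT animals. Without cerebellum WT 2 the WT call of Epha7 between these 2 regions was lost.

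Epha3 was the EphA receptor called higher in the cerebellum than in the cortex, in WT animals only. With cerebellum set against cortex, the log2 difference was 0.47 in KO animals (SE 0.40, adjusted p = 0.416) and 2.10 in WT animals (SE 0.40, adjusted p = 0.000129). The difference between the genotypes did not pass the test of the difference itself (F over the regions, adjusted p = 0.931), and without cortex KO 1 and KO 4, the arrays with high olfactory bulb markers, the KO difference was 1.618 (adjusted p = 0.00011). Without cortex KO 2 it was 0.011 (adjusted p = 0.989). Epha8 was also higher in the cerebellum by the adjusted p, under the 2-fold minimum, with log2 differences from cortex of 0.57 in KO animals (SE 0.14, adjusted p = 0.00253) and 0.67 in WT animals (SE 0.14, adjusted p = 0.000434). Epha1, Epha2, Epha8 and Epha10 were not called between any regions.

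Among the 4 EphB receptors, Ephb6, which lacks kinase activity, was called lower in the cerebellum than in the cortex with log2 differences of -1.53 in KO animals and -2.17 in WT animals, and lower than in the hippocampus with -1.04 in KO animals and -1.18 in WT animals. Ephb1, a receptor of ephrin-B ligands, went the other way. Its log2 levels in the cerebellum were 12.84, 12.71, 12.80 and 12.70 in the KO animals and 12.73, 12.65, 12.91 and 12.65 in the WT animals, against 11.61, 11.65, 11.97 and 11.43 in the KO animals and 11.12, 11.95, 11.97 and 11.51 in the WT animals in the hippocampus. No hippocampus or cortex array reached the lowest cerebellum array, and the log2 difference of cerebellum from hippocampus was 1.10 in KO animals (SE 0.16, adjusted p = 6.57e-06) and 1.10 in WT animals (SE 0.16, adjusted p = 5.33e-06). Against cortex Ephb1 was called in KO animals only, with mean log2 levels of 12.765 in the cerebellum and 11.664 in the cortex. In WT animals these means were 12.736 and 11.956, under the 2-fold minimum. Ephb3 was called lower than cortex only in WT animals, with log2 differences of -0.99 in KO animals and -1.22 in WT animals, and Ephb4 was not called.

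Slit1, a secreted repellent made by neurons, had the largest regional difference of all 57 genes in either genotype. Its log2 levels in the cerebellum were 8.07, 8.34, 9.35 and 7.31 in the KO animals and 7.40, 7.38, 8.13 and 7.77 in the WT animals. In the hippocampus they were 12.80, 12.60, 12.83 and 13.18 in the KO animals and 13.02, 12.68, 12.80 and 12.60 in the WT animals, and in the cortex 10.41, 10.27, 10.69 and 10.10 in the KO animals and 10.52, 10.41, 11.29 and 11.05 in the WT animals. The regions did not overlap. The log2 difference of cerebellum from hippocampus was -4.59 in KO animals (SE 0.27, adjusted p = 1.2e-12) and -5.11 in WT animals (SE 0.27, adjusted p = 1.13e-13), and for hippocampus against cortex it was 2.48 in KO animals (SE 0.27, adjusted p = 1.17e-06) and 1.95 in WT animals (SE 0.27, adjusted p = 4.63e-05).

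Slit3 followed the same order with smaller steps. Log2 levels ran from 10.57 to 11.62 in the cerebellum, from 12.61 to 13.25 in the hippocampus and from 11.71 to 12.53 in the cortex, and the log2 difference of cerebellum from hippocampus was -1.85 in KO animals (SE 0.16, adjusted p = 6.71e-10) and -1.50 in WT animals (SE 0.16, adjusted p = 1.88e-08). Slit2 was not called, with log2 differences of -0.72 in KO animals and -0.77 in WT animals between cerebellum and hippocampus.

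The Slit receptors Robo1 and Robo2 were lower in the cerebellum as well. Robo2 had log2 levels of 9.77, 9.81, 10.29 and 9.25 in the KO animals and 8.96, 8.85, 9.91 and 9.38 in the WT animals in the cerebellum. Hippocampus arrays lay between 11.51 and 12.05, and in the cortex the log2 levels were 12.50, 11.90, 12.11 and 12.72 in the KO animals and 11.91, 12.03, 12.12 and 11.81 in the WT animals. The cerebellum stood below both forebrain regions in every array. For cerebellum against cortex the log2 difference was -2.53 in KO animals (SE 0.21, adjusted p = 4.44e-10) and -2.69 in WT animals (SE 0.21, adjusted p = 9.13e-11). Robo1 was called only against the hippocampus, with log2 differences of -1.38 in KO animals and -1.45 in WT animals. Robo3, which in mammals binds Slits poorly if at all, and Robo4, a receptor of endothelial cells, were not called in any pair of regions.

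**Figure D3:**
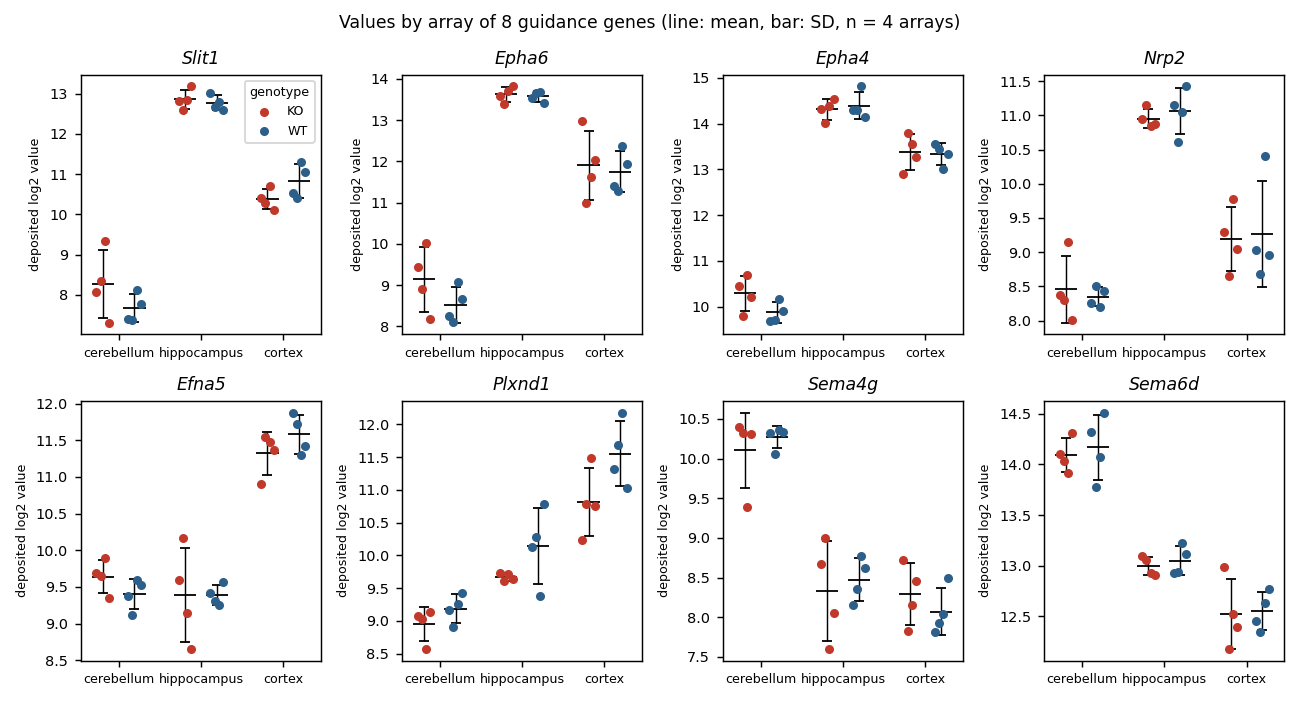
Deposited log2 level of 8 guidance genes in every array, KO (red) left of WT (blue) in each region, with a line at the mean and a bar of 1 SD (n = 4). Slit1, Epha6 and Epha4 keep the 3 regions apart, Efna5 is highest in the cortex, Nrp2 in the hippocampus, and Sema4g and Sema6d in the cerebellum.

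Semaphorins were divided by class. Of the 7 class 3 genes, Sema3e, a ligand that binds Plxnd1 without a neuropilin, was called lower in the cerebellum than in the hippocampus, with log2 differences of -1.95 in KO animals and -2.13 in WT animals. It was also called lower than in the cortex, with log2 differences of -1.11 in KO animals and -1.17 in WT animals. Sema3a, a repellent that also sits in perineuronal nets of the adult brain, was low in the hippocampus: its log2 levels there were 9.12, 9.29, 9.45 and 9.10 in the KO animals and 8.82, 9.21, 8.49 and 9.72 in the WT animals, against 10.96, 10.71, 10.88 and 10.85 in the KO animals and 11.09, 10.96, 10.45 and 10.20 in the WT animals in the cortex. These arrays did not overlap, and the log2 difference of hippocampus from cortex was -1.61 in KO animals (SE 0.20, adjusted p = 6.23e-06) and -1.62 in WT animals (SE 0.20, adjusted p = 8.72e-06). Sema3b, Sema3d, Sema3f and Sema3g were not called, and Sema3c was called only between cerebellum and cortex of KO animals, where cortex KO 1 and KO 4 were its 2 highest cortex arrays.

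Transmembrane semaphorins of classes 4 and 6 held 2 of the genes that were called higher in the cerebellum. Sema4g, a ligand of Plxnb2, had log2 levels in the cerebellum of 10.39, 10.32, 9.39 and 10.31 in the KO animals and 10.32, 10.06, 10.36 and 10.34 in the WT animals. Hippocampus arrays had log2 levels of 8.67, 8.998, 7.60 and 8.05 in the KO animals and 8.15, 8.36, 8.77 and 8.62 in the WT animals, and cortex arrays 8.73, 7.83, 8.16 and 8.45 in the KO animals and 7.82, 7.93, 8.05 and 8.49 in the WT animals. Every cerebellum array was above every forebrain array, with cerebellum KO 3 the lowest of the 8. On the log2 scale, cerebellum minus cortex was 1.81 in KO animals (SE 0.25, adjusted p = 2.31e-06) and 2.20 in WT animals (SE 0.25, adjusted p = 7.64e-08).

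Sema6d, which binds Plxna1, had log2 levels in the cerebellum of 14.11, 14.03, 13.91 and 14.31 in the KO animals and 14.31, 13.77, 14.07 and 14.51 in the WT animals. In the cortex its log2 levels were 12.99, 12.18, 12.52 and 12.40 in the KO animals and 12.46, 12.35, 12.63 and 12.77 in the WT animals, and no forebrain array reached the cerebellum. Cerebellum differed from cortex by a log2 difference of 1.57 in KO animals (SE 0.15, adjusted p = 9.51e-09) and 1.62 in WT animals (SE 0.15, adjusted p = 3.88e-09). Sema4c, Sema4d and Sema4f had positive differences in all 4 cerebellum comparisons, none of 2-fold, with Sema4f at 0.70 in KO animals and 0.95 in WT animals against cortex. Sema6b went the other way and was called lower in WT animals only, with log2 differences of -0.97 in KO animals and -1.13 in WT animals against cortex.

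Sema5a, a transmembrane semaphorin with thrombospondin repeats, was highest in the hippocampus. Its log2 levels there were 11.65, 11.65, 11.85 and 11.70 in the KO animals and 11.79, 11.04, 12.04 and 11.71 in the WT animals, against 10.65, 9.64, 10.10 and 10.496 in the KO animals and 9.31, 9.87, 10.01 and 9.68 in the WT animals in the cortex. The arrays did not overlap, and the log2 difference of hippocampus from cortex was 1.49 in KO animals (SE 0.19, adjusted p = 1.12e-05) and 1.93 in WT animals (SE 0.19, adjusted p = 4.88e-07). Sema5b was called lower in the cerebellum in WT animals, with a log2 difference of -1.17 from cortex, against -0.87 in KO animals. The lipid-anchored Sema7a, which binds Plxnc1 and integrins, was called higher in the cerebellum than in the hippocampus, with log2 differences of 1.27 in KO animals and 1.19 in WT animals.

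Nrp2, the co-receptor for Sema3f and other class 3 semaphorins, marked the hippocampus. Its log2 levels were 8.38, 8.30, 9.15 and 8.003 in the KO animals and 8.26, 8.51, 8.20 and 8.43 in the WT animals in the cerebellum. In the hippocampus they were 10.94, 11.14, 10.84 and 10.88 in the KO animals and 11.15, 10.62, 11.05 and 11.43 in the WT animals, and in the cortex 9.29, 8.65, 9.78 and 9.04 in the KO animals and 9.03, 8.68, 10.40 and 8.96 in the WT animals. All 8 hippocampus arrays were above all others, and cortex WT 3 was the highest of the rest. With hippocampus set against cortex, the log2 difference was 1.76 in KO animals (SE 0.28, adjusted p = 0.000134) and 1.80 in WT animals (SE 0.28, adjusted p = 0.00014), and for cerebellum against hippocampus it was -2.49 in KO animals (SE 0.28, adjusted p = 8.67e-08) and -2.71 in WT animals (SE 0.28, adjusted p = 1.62e-08).

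Plexins differed in the region where they were high. Plxnd1, the receptor for Sema3e in vessels and neurons, was highest in the cortex, with log2 levels of 9.73, 9.61, 9.71 and 9.64 in the KO animals and 10.13, 10.28, 9.38 and 10.79 in the WT animals in the hippocampus. Its log2 levels in the cortex were 10.23, 10.78, 11.49 and 10.76 in the KO animals and 11.32, 11.68, 12.18 and 11.03 in the WT animals, and the 2 regions overlapped. The log2 difference of hippocampus from cortex was -1.14 in KO animals (SE 0.25, adjusted p = 0.00412) and -1.41 in WT animals (SE 0.25, adjusted p = 0.000626), and without cortex KO 3 the KO value was -0.919, under the 2-fold minimum. For cerebellum against cortex the log2 difference was -1.86 in KO animals (SE 0.25, adjusted p = 1.69e-06) and -2.37 in WT animals (SE 0.25, adjusted p = 2.58e-08).

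Of the plexin-A receptors, Plxna2 was called lower in the cerebellum than in the cortex, with log2 differences of -1.35 in KO animals and -1.52 in WT animals, and lower than in the hippocampus, with -1.06 in KO animals and -1.03 in WT animals. Without cerebellum WT 2 its WT call against hippocampus was lost. Plxna4 was called lower in the cerebellum than in the hippocampus, with log2 differences of -1.58 in KO animals and -1.62 in WT animals. Plxna4, which serves Sema3a together with neuropilins, was called higher in the hippocampus than in the cortex in KO animals only, with log2 differences of 1.22 in KO animals and 0.98 in WT animals. Plxnb2, known from migrating cerebellar granule cell precursors, was called higher in the cerebellum in WT animals only, with log2 differences from cortex of 0.82 in KO animals and 1.31 in WT animals. Without cortex KO 1 and KO 4 its KO difference was 1.046 (adjusted p = 0.000167). Without cortex KO 2 it was 0.729 and without cerebellum KO 3 it was 0.967, both under the 2-fold minimum. From hippocampus the KO difference ran from 0.636 to 0.957 when 1 array at a time was left out. Plxnc1 lay on either side of the 2-fold minimum, with log2 differences from cortex of -1.01 in KO animals and -0.97 in WT animals. It was called in KO animals only, against cortex and against hippocampus, and without cerebellum KO 3 the KO differences were -0.892 and -0.941 and neither was called. Plxna3, Plxnb1 and Plxnb3 were not called.

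In all, 32 of the 57 genes were called in at least 1 comparison of regions in either genotype, where 13.6% of all rows were, and 25 in none. For 10 of the 25 the adjusted p was not under 0.05 in any of the 6 comparisons: Efna1, Efna2, Epha1, Epha2, Plxna3, Plxnb3, Robo4, Sema3b, Sema3g and Sema6c, whose log2 differences lay between -0.41 and 0.46. Of the genes not called between cerebellum and cortex, log2 differences ran from -0.99 (Ephb3) to 0.82 (Plxnb2) in KO animals and from -0.97 (Plxnc1) to 0.95 (Sema4f) in WT animals.

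Whether a regional difference depended on genotype was tested as a difference of differences, and no guidance gene passed. Over the 57 genes the smallest adjusted p was 0.773 for cerebellum against cortex, 0.887 for cerebellum against hippocampus and 1 for hippocampus against cortex, with 0 of the 57 genes and 0% of all rows called. At an unadjusted p under 0.05 there were 5, 3 and 2 of the 57 genes, where all rows gave 6.2%, 5.17% and 4.07%.

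Cytoplasmic partners and neighbouring guidance systems were read from 6 lists of other genes, 83 measured in all, chosen with earlier results of these data known. Whether their regional differences depended on genotype was tested in the same way, and 0 of the 83 were called in any pair of regions. Their smallest adjusted p was 0.773 for cerebellum against cortex and 0.887 for cerebellum against hippocampus. Between cerebellum and cortex 26 of the 83 (31.3%) were called in KO animals (11 higher, 15 lower), against 8.21% of all rows, and 28 (33.7%) in WT animals (10 higher, 18 lower), against 9.98%. Between cerebellum and hippocampus 24 (28.9%) were called in KO animals (7 higher, 17 lower), against 8.12% of all rows, and 29 (34.9%) in WT animals (10 higher, 19 lower), against 9.83%. Between hippocampus and cortex 2 of the 83 (2.41%) were called in each genotype, against 1.84% of all rows in KO and 1.36% in WT animals: Ngef and Rnd1, both lower in the hippocampus. The members of the other lists with the widest WT difference there did not pass, with log2 differences of 1.04 in KO animals and 1.30 in WT animals for Ntng1, 0.39 in KO animals and 0.78 in WT animals for Dscaml1, -0.22 in KO animals and -0.81 in WT animals for Flrt2 and -0.35 in KO animals and -0.54 in WT animals for Limk1.

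Of 10 netrin and RGM receptors, 5 were called between cerebellum and cortex in KO animals (1 higher, 4 lower in the cerebellum), where 8.21% of all rows were, and 6 in WT animals (1 higher, 5 lower), where 9.98% were. Dcc, the attractive netrin receptor, had log2 differences from hippocampus of -2.20 in KO animals and -2.61 in WT animals. Lrrc4c, a receptor for netrin-G1, had log2 differences from cortex of -1.90 in KO animals and -2.59 in WT animals. The 1 called gene that was higher, named after its values were seen, was Unc5b, a repulsive netrin receptor, with log2 differences from cortex of 1.95 in KO animals and 2.21 in WT animals. Of 7 netrin, draxin and RGM ligands, Ntn4, a netrin of basement membranes, was called higher in the cerebellum, with log2 differences of 2.20 in KO animals and 2.90 in WT animals from hippocampus and 1.53 in KO animals and 2.73 in WT animals from cortex. Its SD in KO animals was 0.842 in the cortex and 0.66 in the cerebellum, against 0.128 and 0.118 in WT animals.

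Of 17 Eph and ephrin effectors, 8 were called between cerebellum and cortex in KO animals (3 higher, 5 lower), against 8.21% of all rows, and 9 in WT animals (4 higher, 5 lower), against 9.98%. Ngef, an exchange factor that binds Epha4, had log2 differences between hippocampus and cortex of -1.29 in KO animals and -1.64 in WT animals. Also named after its values were seen, the chimaerin Chn2, a Rac inhibitor, was called higher in the cerebellum, with log2 differences from cortex of 3.84 in KO animals and 4.34 in WT animals, while its relative Chn1, known to act after Epha4, was lower, with -2.30 in KO animals and -2.73 in WT animals.

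Of 23 semaphorin and plexin effectors, 5 (21.7%) were called against cortex in KO animals (2 higher, 3 lower), where 8.21% of all rows were, and 6 (26.1%) in WT animals (2 higher, 4 lower), where 9.98% were. Met, a growth factor receptor that associates with plexin-B, had log2 differences from cortex of -1.69 in KO animals and -2.16 in WT animals. Its mean cerebellum log2 levels, 6.456 in KO and 6.07 in WT animals, were below 7.07, the 25th percentile of the mean levels of all rows. Cdk5r1, the activator of Cdk5, had log2 differences from hippocampus of -1.41 in KO animals and -1.65 in WT animals. Rnd1, a small GTPase that binds plexins, had log2 differences between hippocampus and cortex of -1.05 in KO animals and -1.25 in WT animals. Of 14 Slit and Robo effectors, 4 (28.6%) were called against cortex in KO animals (3 higher, 1 lower) and 4 in WT animals (2 higher, 2 lower). Flrt2, a membrane protein that interacts with Robo and Unc5 receptors, had log2 differences of -2.38 in KO animals and -3.18 in WT animals from cortex and -2.16 in KO animals and -2.37 in WT animals from hippocampus. Of 12 growth cone cytoskeleton genes, 3 (25%) were called against cortex in KO animals (1 higher, 2 lower) and 2 (16.7%) in WT animals (0 higher, 2 lower), to be read against the same shares of all rows. Basp1, a growth cone membrane protein, had log2 differences of -2.75 in KO animals and -3.69 in WT animals from cortex and -2.61 in KO animals and -3.75 in WT animals from hippocampus.

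The second question was whether the loss of liver glutamine synthetase altered guidance genes in any region. No guidance gene passed the test between KO and WT animals in the cerebellum, the hippocampus or the cortex, where 0% of all rows were called in each region, and the smallest adjusted p was 0.435, 1 and 0.534. At an unadjusted p under 0.05 there were 9 of the 57 genes in the cerebellum, where 9.5% of all rows were. There were 0 of 57 in the hippocampus, against 2.11% of all rows, and 9 of 57 in the cortex, against 7.45%. Averaged over the regions 0 genes were called, with a smallest adjusted p of 0.642. At an unadjusted p under 0.05 this average gave 11 of the 57 genes, against 7.69% of all rows. The median log2 difference of KO from WT over the 57 genes was 0.028 in the cerebellum, 0.020 in the hippocampus and -0.072 in the cortex. Of the 83 genes of the other lists, 0 were called in each region.

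**Figure D4:**
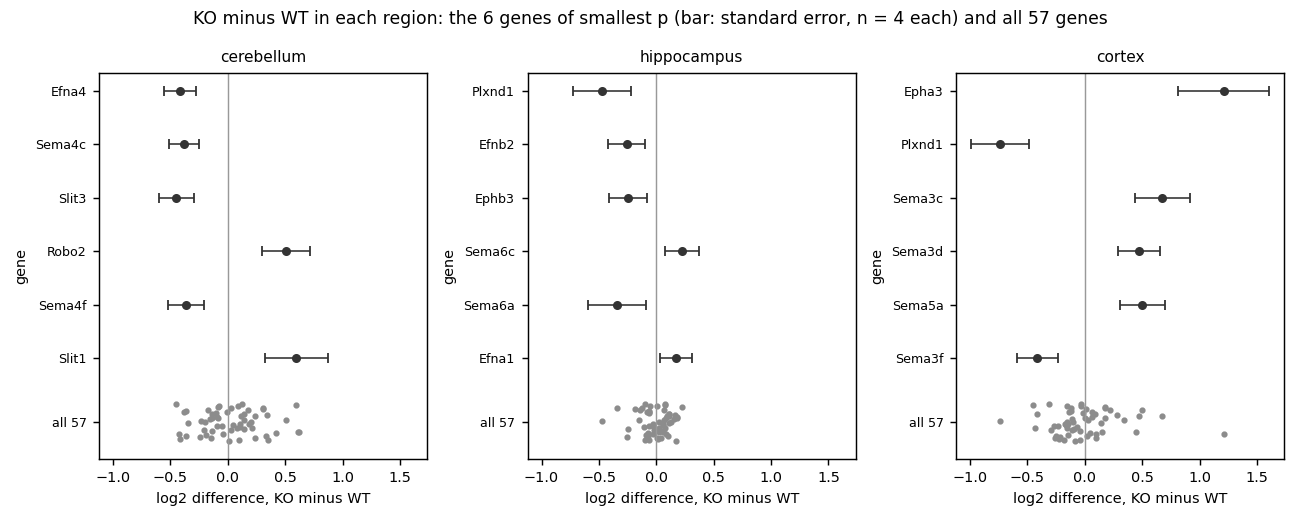
Log2 difference of KO from WT in each region, with the standard error (n = 4 arrays per group), for the 6 genes of smallest p, and below them as grey points the differences of all 57 genes. In the hippocampus all 57 lie between -0.473 and 0.223, and in the cortex Epha3 lies at 1.21.

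In the cortex, Epha3 had the largest difference. Its log2 levels were 11.11, 8.33, 8.81 and 10.61 in the KO animals and 8.34, 8.07, 8.999 and 8.61 in the WT animals. Cortex KO 1 and KO 4 were above the other 6 arrays, and the other KO arrays lay among the WT arrays. On the log2 scale, KO minus WT was 1.21 (SE 0.40, adjusted p = 0.534). Without KO 1 and KO 4 it was 0.065 (adjusted p = 0.999), and without KO 2 it was 1.671 (adjusted p = 0.046).

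The same arrays were the highest for the secreted semaphorin Sema3c, with log2 levels of 11.56, 10.53, 10.20 and 11.34 in the KO animals and 10.32, 10.13, 10.21 and 10.27 in the WT animals in the cortex. Its log2 difference of KO from WT was 0.67 (SE 0.24, adjusted p = 0.553), and 0.13 without KO 1 and KO 4. Sema3d had a log2 difference of 0.47, and 0.146 without them, and Sema5a had 0.50, and 0.151 without them. Because KO 1 and KO 4 were the highest arrays for these genes and for Epha3, leaving them out had to lower each difference. Cortex KO 1 and KO 4 were the 2 highest of the 8 cortex arrays for 10 of the 57 genes (17.5%, against 10.6% of all rows): Epha3, Epha5, Plxnb2, Robo2, Sema3c, Sema3d, Sema3e, Sema4d, Sema5a and Sema6a. Olfactory bulb markers were highest in the same 2 arrays, as given above, and their part in these values was not tested.

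Plxnd1 had the opposite direction, with cortex log2 levels of 10.23, 10.78, 11.49 and 10.76 in the KO animals, against 11.32, 11.68, 12.18 and 11.03 in the WT animals. KO and WT arrays overlapped. KO differed from WT by a log2 difference of -0.74 (SE 0.25, adjusted p = 0.552), and -0.42 without KO 1 and KO 4. These were the 2 lowest arrays, so leaving them out had to raise the difference. In the hippocampus it was -0.47 (SE 0.25, adjusted p = 1), the smallest p there, and averaged over the regions -0.48 (SE 0.15, adjusted p = 0.642). Sema3f, a ligand of Nrp2, had a log2 difference of -0.41 (SE 0.18, adjusted p = 0.623) in the cortex, and -0.464 without KO 1 and KO 4. Plxna1, a receptor for class 3 and class 6 semaphorins, was the only guidance gene whose cortex arrays did not overlap, with log2 levels of 10.79, 11.07, 11.12 and 11.21 in the KO animals and 11.23, 11.35, 11.24 and 11.30 in the WT animals (1 of 57 genes, 1.75%, against 3.68% of all rows).

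In the cerebellum the 6 genes of smallest p were Efna4, Sema4c, Slit3, Robo2, Sema4f and Slit1. Efna4 had log2 levels of 8.04, 8.62, 8.37 and 8.55 in the KO animals and 8.84, 9.02, 8.83 and 8.55 in the WT animals. WT 4 lay among the KO arrays, and the other WT arrays were above all KO arrays. Its log2 difference of KO from WT was -0.41 (SE 0.14, adjusted p = 0.435), and -0.405 without KO 3. That of Sema4c was -0.39, and -0.258 without KO 3, and that of Sema4f was -0.37, and -0.129 without it.

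Slit3 was lower in every KO cerebellum than in every WT cerebellum, at log2 levels of 11.14, 11.07, 10.57 and 11.35 in the KO animals and 11.42, 11.44, 11.44 and 11.62 in the WT animals. The log2 difference was -0.45 (SE 0.16, adjusted p = 0.435), and -0.292 without KO 3. Its relative Slit1 and the receptor Robo2 had positive differences, 0.60 and 0.51, with KO 3 the highest of the 8 arrays for both, and 0.238 and 0.335 without KO 3. Leaving out the highest KO array had to lower both differences. KO 3 was the lowest array for Slit3, Sema4c and Sema4f, so leaving it out had to raise theirs. Besides Slit3, 2 other genes did not overlap between the genotypes in the cerebellum (3 of 57, 5.26%, against 3.5% of all rows). Epha5 was higher, with a lowest KO log2 level of 9.38 and a highest WT level of 9.37, and Plxnb2 was lower, with a highest KO level and a lowest WT level that both round to 11.08.

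Cerebellum KO 3, the array with high brainstem, oligodendrocyte and other markers given above, was the highest cerebellum array for 20 of the 57 genes (35.1%, against 23.8% of all rows) and the lowest for 17 (29.8%, against 27.9%). Genes for which it was the highest included Slit1, Epha4, Epha5, Epha6, Efna3, Nrp2 and Robo2, and those for which it was the lowest included Sema4g, Plxnb2, Sema4c and Slit3. The part of these markers in the values was not tested. Without KO 3, 0 guidance genes were called between KO and WT in the cerebellum, and the called regional differences in KO animals numbered 20 against cortex (9.37% of all rows), 18 of them shared with the full set (Plxnc1 was lost, Ephb3 and Sema5b were gained), and 21 against hippocampus (9.48% of all rows), all 21 shared (Plxnc1 was lost).

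**Figure D5:**
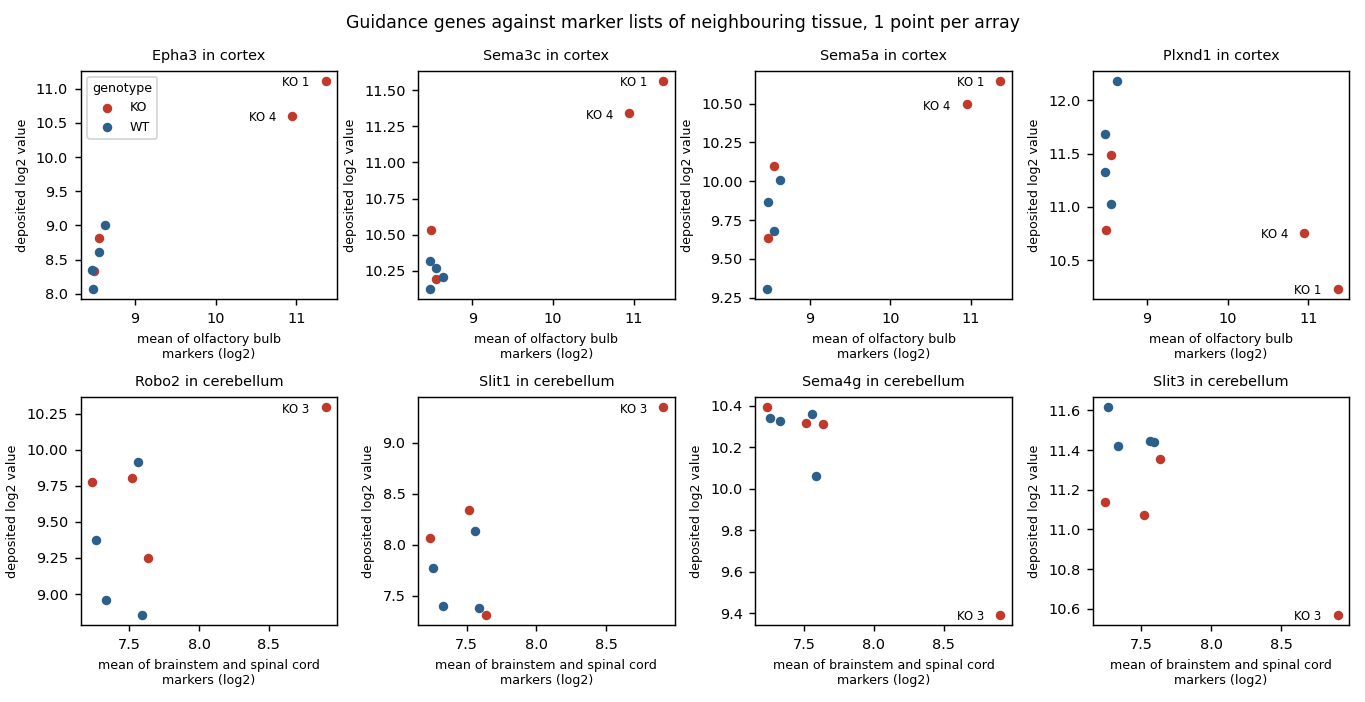
Deposited log2 level of 4 guidance genes in the 8 cortex arrays against the mean of 13 olfactory bulb markers (top row), and of 4 guidance genes in the 8 cerebellum arrays against the mean of 15 brainstem and spinal cord markers (bottom row), KO in red and WT in blue. Cortex KO 1 and KO 4 and cerebellum KO 3 lie to the right of all other arrays and at an end of the range of each gene shown, because the genes shown were picked from those for which these arrays are highest or lowest: 10 and 3 of the 57 for cortex KO 1 and KO 4, 20 and 17 for cerebellum KO 3.

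In the hippocampus the 6 genes of smallest p were Plxnd1, Efnb2, Ephb3, Sema6c, Sema6a and Efna1, with log2 differences from -0.47 for Plxnd1 to 0.22 for Sema6c. Plxnd1 had log2 levels of 9.73, 9.61, 9.71 and 9.64 in the KO animals and 10.13, 10.28, 9.38 and 10.79 in the WT animals. The KO arrays lay close together within the wider range of the WT arrays. Efnb2 had a log2 difference of -0.26, Ephb3 of -0.25, Sema6a of -0.34 and Efna1 of 0.17. No guidance gene separated KO from WT arrays in the hippocampus (0 of 57, against 2.17% of all rows).

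Whether the KO effect differed between the regions was tested with an F statistic. No guidance gene passed, with a smallest adjusted p of 0.931, where 0% of all rows were called and 4.97% had an unadjusted p under 0.05. Epha3 and Slit1 were the 2 genes with an unadjusted p under 0.05, at 0.0208 and 0.0408. For Slit1 the log2 difference of KO from WT was 0.60 in the cerebellum, 0.08 in the hippocampus and -0.45 in the cortex, with standard errors of 0.27 each.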

How the data were processed

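The deposited table holds 22206 rows of log2 expression values for 24 arrays, which the authors made with RMA, per the submitters' processing notes. RMA settings, the probe build and the labelling chemistry are not settled in the sources used here, and detection calls were not used. The values ran from 3.888 to 19.14, with array medians between 8.719 and 8.816. Genes were named through the platform annotation, and 19572 rows with 1 symbol (19505 symbols) were tested while 2634 rows with several or none were left out.

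Group means of the 6 groups were fitted over all 24 arrays with limma 3.58.1 in R 4.3.3 (18 residual degrees of freedom, 6.9 prior ones), and p-values were adjusted over all rows by Benjamini-Hochberg. A regional call needed an adjusted p under 0.05 and a log2 difference of at least 1, and a genotype call needed the adjusted p alone. The fitting steps were tested on simulated data. The members and gene lists were chosen with earlier results of these data known. Genes named by rule were, for each pair of regions in WT animals, the 5 called genes of largest difference in each direction. Also named were the genes at least 2 log2 apart from both other regions and the 6 genes of smallest p for genotype in each region. The gene of highest mean in each family was named as well. Not all of these genes are given with the level of every array. From the lists of other genes, that of largest WT difference in each pair was given, apart from a result on an Eph and ephrin effector that is not reported here, and other genes are named to account for the remaining members.

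The labels number the animals 1 to 4 in each genotype, and the 3 regions of 1 animal share its number. Deviations from the group means correlated between regions of 1 animal at r of -0.191 to 0.297, above 0.1 in 6 of 24 pairs, and between KO and WT arrays of 1 number, which are different animals, at -0.243 to 0.297, above 0.1 in 2 of 12 pairs. The replicate block (statmod 1.5.0), renormalization, filters, left-out arrays and smaller fits were tried as alternatives. An exact permutation test of 4 against 4 arrays cannot give a p below 0.0286. RNA of the deletion's target in liver was not measured, so the labels' genotype was not checked.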

Additional observations from a re-analysis of the deposited data

Results flagged for a closer look

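In 13 of the 210 groups of 4 arrays tested over the 35 named genes (6.19%), the highest or lowest array stood far from the other 3 by Dixon's criterion, which chance meets in about 5% of groups. All values are log2 levels.

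Cerebellum KO 3 gave 3 of these values. It had the lowest Plxnd1, at 8.57 against 9.03 to 9.13 in the other KO cerebella, and the lowest Sema4g, at 9.39 against 10.31 to 10.39. It had the highest Sema3d, at 9.44 against 8.75 to 8.86. Brainstem, oligodendrocyte and other markers were also highest in that array, and their part in these values was not tested.

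Efnb2 was set apart 3 times, each time by a low array: cerebellum WT 2 at 11.78 against 12.19 to 12.26, hippocampus KO 3 at 12.75 against 13.01 to 13.06, and hippocampus WT 3 at 12.68 against 13.37 to 13.44. Among the other hippocampus groups, KO 4 was high for Epha5, at 13.14 against 12.66 to 12.70, and KO 2 was high for Plxnc1, at 13.38 against 12.93 to 12.98.

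In the cerebellum, KO 1 was low for Plxna2, at 11.61 against 11.74 to 11.76, and KO 2 was high for Sema7a, at 13.14 against 12.76 to 12.81. WT 1 was high for Sema4d, at 12.28 against 11.90 to 11.97, WT 2 was low for Sema4g, at 10.06 against 10.32 to 10.36, and WT 4 was high for Slit3, at 11.62 against 11.42 to 11.44.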

How the results depend on the processing

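Over 35 settings, 24 of which left out 1 array each, 1298 of 1305 values of 80 pairs of a gene and a comparison, from 30 of the 57 genes, kept their direction and their side of the threshold, 5 passed it anew, 2 no longer passed it and 0 changed direction. These genes were named from the same data for large WT regional differences or small genotype p, so this count cannot measure stability. A genotype value counted as kept while uncalled with the same sign, such as Epha3 in the cortex at 0.065 without KO 1 and KO 4. Over all 57 genes more calls moved: without cortex KO 1 and KO 4, 3 genes lost and 5 gained a call between cerebellum and cortex of KO animals, and without cerebellum KO 3 Plxnc1 lost its 2 calls in KO animals. Of 277 counts of called guidance genes, 270 stayed within 1.5 times the reported count. Without the 2-fold minimum the counts were 35 in KO and 39 in WT animals for cerebellum against cortex, 43 in KO and 38 in WT animals for cerebellum against hippocampus, and 16 in KO and 20 in WT animals for hippocampus against cortex. Leaving out 1 array at a time gave 18 to 22 genes in KO and 20 to 22 in WT animals, 21 to 24 in KO and 23 to 25 in WT animals, and 9 to 11 in each genotype for the same 3 pairs. Between KO and WT animals it gave 0 genes in the cerebellum and the hippocampus and 0 to 1 in the cortex, where Epha3 passed without cortex KO 2, along with 55 rows in all. The cause was not tested.

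With animal as a random replicate block the counts were unchanged, at 19, 20, 22, 24, 9 and 9 for the regional comparisons and 0 for KO against WT in each region, and the estimated correlation of arrays of 1 animal was 0.00646. With the replicate number as a fixed block, 0 guidance genes were called in each region, and 35 rows in all in the cerebellum. Each guidance gene had 1 row, so averaging the rows of a symbol could not alter its values.

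Plxnd1 lost its call between hippocampus and cortex of KO animals without cortex KO 3 (-0.92), and Ephb1 lost its call between cerebellum and hippocampus of WT animals without hippocampus WT 1 (0.93). Nothing in the labels says that animals were handled apart, so p-values measure the spread between these arrays. Signal over background is not known, so levels near the dim end carry no detection call.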
